A study of Mus musculus with 9 samples.

Results

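The 10 glycolysis enzymes described here were *Hk2*, *Gpi1*, *Pfkl*, *Aldoa*, *Tpi1*, *Pgk1*, *Pgam1*, *Eno1*, *Pkm*, and *Ldha*, chosen by gene symbol as members of 1 pathway, with earlier results of these data known. All 10 were among the 50559 genes listed, and all 10 were among the 16618 genes left after a filter on low counts. RNA-Seq was performed on CD45+CD11b+ myeloid cells sorted from the quadriceps of *mdx* mice, a dystrophin-deficient model of Duchenne muscular dystrophy. All mice were *mdx*, so no healthy group stands beside them, and all were 4.5 weeks old after 7 days of vehicle, spironolactone, or prednisolone. Vehicle was the sucralose drink that also carried both drugs. Spironolactone is a mineralocorticoid receptor antagonist, and prednisolone is a glucocorticoid receptor agonist. Each group had 3 libraries, each a pool of cells from 3 mice, and each group held both sexes with the sexes per pool not given. P values therefore measure the spread between pools and not between single mice.

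Glycolysis splits glucose into pyruvate in the cytosol and yields ATP without oxygen, and lactate dehydrogenase then turns pyruvate into lactate. Inflammatory macrophages and neutrophils are known for a heavy use of this pathway, and the transcription factor HIF-1, whose oxygen-regulated subunit is encoded by *Hif1a*, is a known activator of most of its genes. The pathway is also very active in fast skeletal muscle fibers, which use some isoenzymes of their own. In bulk RNA, fewer cells of a type and less RNA per cell cannot be told apart.

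The libraries had 31469815 to 32943512 counts on genes. The macrophage and monocyte markers were abundant in every library, with a summed level of 20458 to 23931 CPM, the count scaled to library size, and all 13 of them passed the filter. The neutrophil markers summed to 4293 CPM in vehicle replicate 3 and 3182 CPM in spironolactone replicate 3, against 393 to 1035 CPM in the other libraries. The fast skeletal muscle markers summed to 307 to 467 CPM with vehicle, 579 to 977 CPM with spironolactone, and 449 to 691 CPM with prednisolone. Of these 16 muscle genes, 15 were tested, and all 15 had higher fitted values with spironolactone than with vehicle, with 0 past the adjusted threshold in edgeR (0.0181% of all genes tested) and 12 with an unadjusted P under 0.05 (9.29% of all genes). Spironolactone replicate 1 had the highest level of *Xist*, at 712 CPM against 65.3 to 508 CPM elsewhere.

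ACGTG, read on either strand, is a core at which HIF-1 binds DNA. This core was searched in the 250 bases before each transcript start in the RefSeq promoter table of build GRCm38.p6. Other forms of the HIF-1 core were not searched, so a window without ACGTG may hold another form. Some of these starts lie downstream of the first base of the gene in the GENCODE annotation of GRCm39, so the windows of *Pfkl*, *Aldoa*, *Pkm*, and *Ldha* and 2 of the 3 windows of *Eno1* lie inside the gene. ACGTG or its reverse complement CACGT occurred in 16.6% of all 32851 promoters of that length, and the palindrome CACGTG, which holds both, occurred in 6.02%. Among the 10 enzymes, at least 1 window of *Hk2*, *Aldoa*, *Pgk1*, *Pgam1*, *Pkm*, and *Ldha* had the core, and the windows of *Gpi1*, *Pfkl*, *Tpi1*, and *Eno1* did not have these letters. The 3 stretches shown next are the parts of the *Ldha*, *Pgk1*, and *Hk2* windows without an annotated exon, because these genes had the most copies of the core. Capitals mark ACGTG and CACGT, each sequence is on the strand of its gene, and the places are from an exact match to GRCm39. The *Ldha* stretch is chr7:46494978-46495131 on the plus strand, inside the annotated gene, the *Pgk1* stretch is chrX:105230456-105230705 on the plus strand, and the *Hk2* stretch is chr6:82751470-82751685 on the minus strand.
Ldha: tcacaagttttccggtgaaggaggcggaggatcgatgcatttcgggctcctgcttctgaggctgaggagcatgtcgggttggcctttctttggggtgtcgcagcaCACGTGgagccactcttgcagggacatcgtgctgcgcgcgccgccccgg
Pgk1: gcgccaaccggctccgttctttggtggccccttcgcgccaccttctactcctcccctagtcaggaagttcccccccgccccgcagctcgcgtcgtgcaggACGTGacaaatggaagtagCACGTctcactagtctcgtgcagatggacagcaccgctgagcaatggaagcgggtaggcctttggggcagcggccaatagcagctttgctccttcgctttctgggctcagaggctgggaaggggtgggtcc
Hk2: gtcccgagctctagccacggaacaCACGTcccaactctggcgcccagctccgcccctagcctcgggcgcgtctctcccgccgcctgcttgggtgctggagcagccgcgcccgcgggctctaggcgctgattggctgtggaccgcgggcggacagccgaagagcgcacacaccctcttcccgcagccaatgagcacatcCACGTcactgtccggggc
The *Ldha* stretch held 1 place with the palindrome, and the whole *Ldha* window held 3 separate places with the core. The *Pgk1* and *Hk2* stretches each held 2 places. A match describes letters and is not evidence of binding.

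The second motif searched was AGAACA or its reverse complement TGTTCT, 1 arm of the element that steroid receptors such as the glucocorticoid receptor bind. It occurred in 16.1% of all promoter windows. Among the enzymes it was found in windows of *Aldoa* and *Tpi1*.

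To compare levels between genes, counts were divided by summed exon length and scaled to TPM, a level per unit of length. In vehicle-treated cells, *Aldoa*, the aldolase that splits the 6-carbon sugar, was highest at 775 ± 11.1 TPM (SD, *n* = 3). *Pkm*, pyruvate kinase, followed at 570 ± 45.4 TPM, and *Ldha*, lactate dehydrogenase A, had 479 ± 27.2 TPM. *Tpi1*, triosephosphate isomerase, had 452 ± 9.57 TPM, and its range overlapped that of *Ldha*. *Pgam1*, phosphoglycerate mutase, *Pgk1*, phosphoglycerate kinase, and *Gpi1*, glucose-6-phosphate isomerase, overlapped in turn at 355 ± 55.3, 342 ± 12.8, and 334 ± 11.9 TPM. *Eno1*, enolase, was at 297 ± 11.5 TPM. The lowest of the 10 enzymes were *Hk2*, a hexokinase that traps glucose in the cell, at 33.6 ± 5.42 TPM, and *Pfkl*, the liver-type phosphofructokinase, at 24.0 ± 2.41 TPM. With their other isoenzymes, the hexokinase step summed to 290 ± 39.6 TPM and the phosphofructokinase step to 56.9 ± 3.97 TPM. The order within the upper 8 depended on the gene length used, since *Gpi1* rather than *Ldha* followed *Pkm*, at 657 against 525 TPM, when the longest transcript was the length, but *Hk2* and *Pfkl* stayed at the bottom with 26.1 and 26.8 TPM.

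The 10 genes lie on 7 chromosomes in GRCm39, with *Gpi1* (chr7:33900755-33929780), *Aldoa* (chr7:126393822-126399923), and *Ldha* (chr7:46490899-46505061) on chromosome 7 and *Hk2* (chr6:82699740-82751469) and *Tpi1* (chr6:124787549-124791273) on chromosome 6. *Pgk1* lies on the X chromosome (chrX:105230706-105247305). *Pfkl* overlaps *Cfap410*, *Aldoa* overlaps *Tlcd3b*, *Tpi1* overlaps *Spsb2*, and *Hk2*, *Pgam1*, *Pkm*, and *Ldha* overlap predicted or unnamed genes on the opposite strand. The strand setting of the counting was not stated, so reads of these neighbors may not be separable. *Aldoa* and *Pkm* also overlap a predicted gene on their own strand, and *Gpi1*, *Pgk1*, and *Eno1* overlap none on either strand. Near-identical copies elsewhere in the genome (at least 95% identity over 100 bases) covered 96.4% of the *Pgam1* transcript, 95.7% of *Pgk1*, 90.8% of *Pkm*, 75.7% of *Eno1*, 68.2% of *Gpi1*, and 54% of *Tpi1*. Reads that fit several places were not counted on genes, and these made up 6.81% to 10.4% of a library, so the levels of these 6 enzymes are uncertain. *Hk2*, *Pfkl*, *Aldoa*, and *Ldha* had 0 such copies.

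Neither drug changed any of the 10 enzymes past the threshold. With prednisolone against vehicle, 0 of 10 were called at an adjusted P under 0.05 by the edgeR quasi-likelihood test, where 1.76% of all genes tested were called. At an unadjusted P under 0.05 there was 1 of 10, *Hk2*, against 14.2% of all genes. With spironolactone against vehicle, 0 of 10 were called, where 0.0181% of all genes were, and again *Hk2* was the 1 enzyme with an unadjusted P under 0.05, against 9.29% of all genes. With spironolactone against prednisolone, 0 of 10 were called, where 5.17% of all genes were, and 0 had an unadjusted P under 0.05, against 22.5% of all genes. DESeq2 and limma-voom also called 0 in each comparison and had the same counts at an unadjusted P under 0.05.

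The intervals give the sizes of change compatible with these data. The 30 intervals of 95% (10 enzymes in 3 comparisons) all lay between -0.52 and 0.40 on the log2 scale, and 28 of them held 0. The plot of fitted changes shows these intervals. The median log2 fold change of the 10 enzymes was -0.07 with prednisolone, where the median of all genes tested was -0.01, and -0.09 with spironolactone, where that median was 0.00009. Single libraries moved these medians: with prednisolone the median was -0.15 without prednisolone replicate 1, -0.13 without vehicle replicate 1, -0.044 without prednisolone replicate 2, -0.043 without prednisolone replicate 3, and -0.022 without vehicle replicate 3, where 5 of 10 enzymes were lower. Fitted values were below vehicle for the same 9 enzymes with both drugs and above for *Aldoa*, and both comparisons use the same vehicle libraries. Without the 2 libraries richest in neutrophil transcripts, a choice made after seeing the data, 5 of 10 were below vehicle with prednisolone and 10 of 10 with spironolactone. Between the drugs the median was -0.01, beside 0.03 for all genes, and its sign was not stable, since it was -0.080 without spironolactone replicate 3 and 0.077 without spironolactone replicate 1. It was also above 0 without prednisolone replicate 1, at 0.043.

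**Figure D1:**
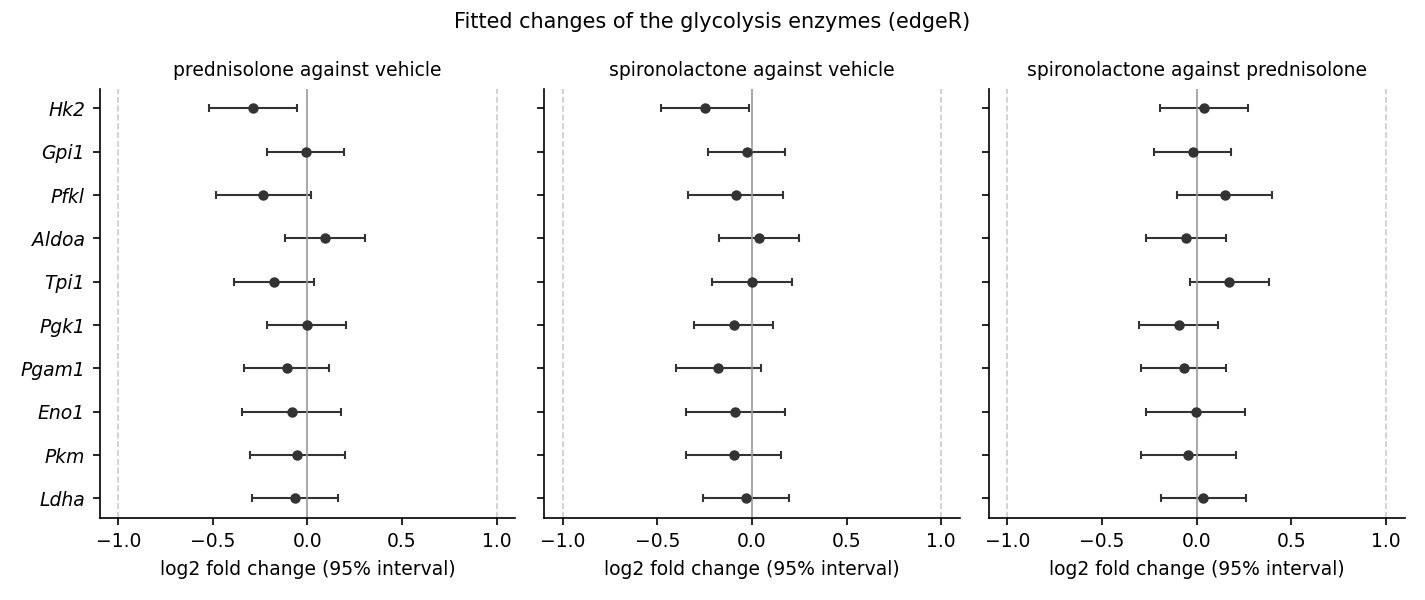
Log2 fold changes fitted by edgeR (points) with 95% intervals (bars) for the 10 glycolysis enzymes in the 3 comparisons, with the solid line at 0 and dashed lines at -1 and 1. Every interval lies between -0.52 and 0.40, and the *Hk2* intervals against vehicle are the 2 that do not hold 0.

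*Hk2* encodes hexokinase 2, the inducible hexokinase of macrophages and muscle that phosphorylates glucose. Its levels were 70.4, 60.5, and 57.4 CPM with vehicle, 49.1, 59.1, and 50.2 CPM with spironolactone, and 56.7, 49.1, and 48.4 CPM with prednisolone. All prednisolone libraries lay below all vehicle libraries, and 1 spironolactone library lay above the lowest vehicle library. The log2 fold change was -0.29 ± 0.11 (SE) with prednisolone (edgeR, adjusted *P* = 0.225) and -0.25 ± 0.11 with spironolactone (adjusted *P* = 0.498). Between the drugs it was 0.04 ± 0.11, with a 95% interval of -0.19 to 0.27.

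*Gpi1* turns glucose-6-phosphate into fructose-6-phosphate. Its levels were 639, 654, and 658 CPM with vehicle, 558, 667, and 687 CPM with spironolactone, and 655, 638, and 647 CPM with prednisolone. The vehicle and prednisolone libraries differed little from each other, and the spironolactone libraries spanned both sides of them. The log2 fold change was -0.01 ± 0.09 with prednisolone and -0.03 ± 0.09 with spironolactone.

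*Pfkl* encodes a subunit of phosphofructokinase, which carries out the committed step of glycolysis. Its levels were 72.7, 71.6, and 65.1 CPM with vehicle, 53.5, 67.7, and 76.2 CPM with spironolactone, and 62.2, 54.3, and 61.6 CPM with prednisolone. All prednisolone libraries lay below all vehicle libraries, while the spironolactone libraries held the lowest and the highest of the 9 values. The log2 fold change with prednisolone was -0.23 ± 0.12 (edgeR, adjusted *P* = 0.394), and with spironolactone it was -0.09 ± 0.12. *Hk2* and *Pfkl* were thus the 2 of 10 enzymes whose prednisolone and vehicle libraries did not overlap. Of all genes tested, 19.7% did not overlap in this comparison, 9.27% with all prednisolone libraries lower and 10.4% with all higher. With spironolactone 0 of 10 were separated from vehicle in either direction, beside 13.5% of all genes (6.99% above and 6.50% below), and between the drugs 0 of 10 were, beside 30.3% (15.1% above and 15.2% below).

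**Figure D2:**
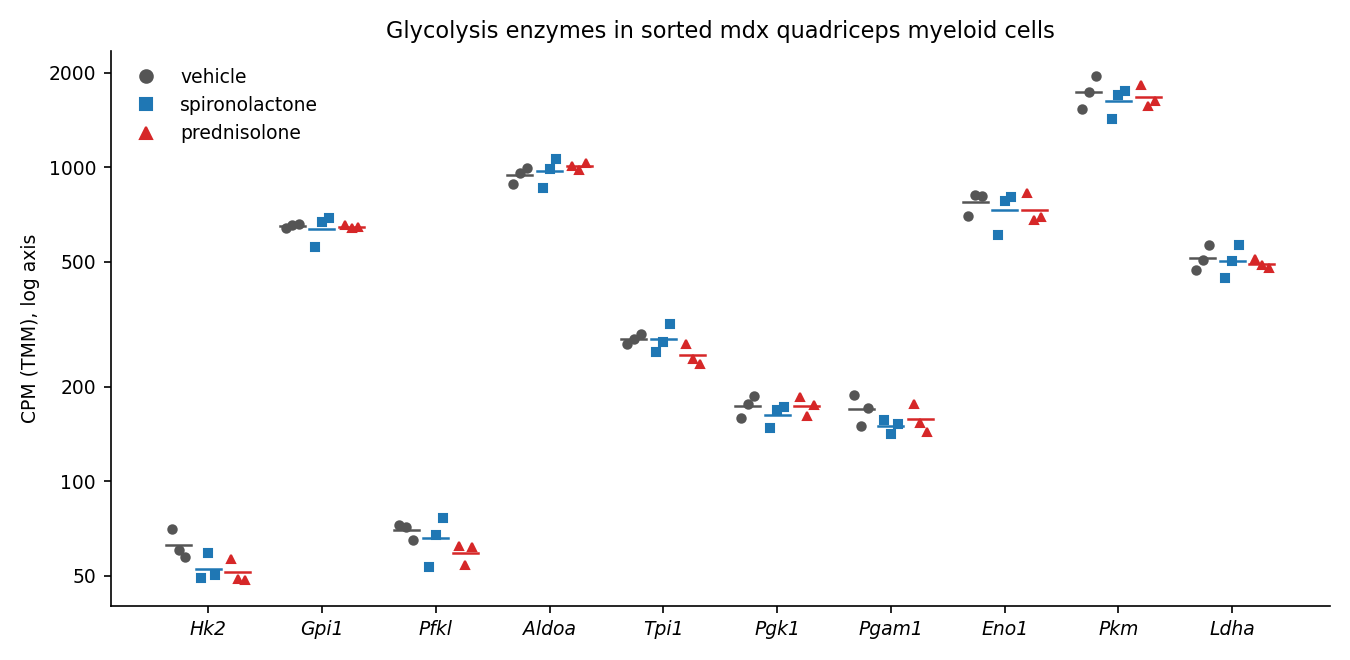
Level of each glycolysis enzyme in each library, in CPM normalized by TMM on a log axis, with points for the 3 pools of a group and a short line at the group mean. Groups overlap for every enzyme except *Hk2* and *Pfkl*, where the 3 prednisolone points lie below the 3 vehicle points.

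The middle steps split the sugar and make the first ATP. *Aldoa* had 884, 960, and 993 CPM with vehicle, 859, 989, and 1063 CPM with spironolactone, and 1012, 980, and 1033 CPM with prednisolone. It was the 1 enzyme with higher fitted values under both drugs, by 0.09 ± 0.10 with prednisolone and 0.04 ± 0.10 with spironolactone on the log2 scale, and the groups overlapped. *Tpi1* had 273, 284, and 295 CPM with vehicle, 258, 277, and 317 CPM with spironolactone, and 274, 245, and 236 CPM with prednisolone. One prednisolone library lay within the vehicle range and the others below it, and the log2 fold change was -0.18 ± 0.10 (edgeR, adjusted *P* = 0.459). *Pgk1*, whose product yields the first ATP of the pathway, had 159, 177, and 187 CPM with vehicle, 148, 169, and 173 CPM with spironolactone, and 185, 161, and 175 CPM with prednisolone. The *Pgk1* group means of 174 ± 14.3 CPM with vehicle and 174 ± 12.2 CPM with prednisolone were nearly equal.

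The last steps lead to pyruvate and lactate. *Pgam1* had 188, 150, and 172 CPM with vehicle, 157, 142, and 152 CPM with spironolactone, and 177, 153, and 143 CPM with prednisolone. Its log2 fold change was -0.18 ± 0.11 with spironolactone (edgeR, adjusted *P* = 0.651), and the groups overlapped. *Eno1* had 699, 818, and 810 CPM with vehicle, 608, 780, and 802 CPM with spironolactone, and 826, 679, and 693 CPM with prednisolone. *Eno1* therefore varied as much within each group as between groups. *Pkm*, which makes pyruvate and the second ATP, had 1527, 1734, and 1950 CPM with vehicle, 1423, 1697, and 1752 CPM with spironolactone, and 1829, 1561, and 1629 CPM with prednisolone. *Ldha*, which regenerates NAD+ by making lactate, had 472, 506, and 566 CPM with vehicle, 444, 504, and 563 CPM with spironolactone, and 510, 487, and 478 CPM with prednisolone. All groups overlapped for *Pkm* and *Ldha*, whose log2 fold changes against vehicle ranged from -0.10 to -0.03.

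Pools of the same group differed in their levels of the enzymes. Together they took 0.508% to 0.567% of the gene counts with vehicle, 0.457% to 0.553% with spironolactone, and 0.509% to 0.558% with prednisolone, so the groups overlapped. Spironolactone replicate 1 had the lowest share and was the lowest of the 9 libraries for 7 of 10 enzymes, and it was below the mean of all libraries for all 10. Vehicle replicate 3 had the highest share. The coefficient of variation within a group had a median over the enzymes of 8.39% with vehicle, 10.8% with spironolactone, and 7.59% with prednisolone. Without spironolactone replicate 1, the median log2 fold change with spironolactone was 0.036 instead of -0.09, so its sign rested on this library. It was -0.15 without spironolactone replicate 3. Leaving out vehicle replicate 2 gave -0.058, and leaving out vehicle replicate 3 gave -0.036. Spironolactone replicate 1 also had 21.8% of its reads on no gene, the most of the 9 (others 17.2% to 20.1%), and the part of this in its low values was not tested. Leaving out the 2 libraries richest in neutrophil transcripts gave 0 calls by edgeR again, with 2, 0, and 0 enzymes at an unadjusted P under 0.05 and medians of -0.02 with prednisolone, -0.09 with spironolactone, and -0.086 between the drugs.

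**Figure D3:**
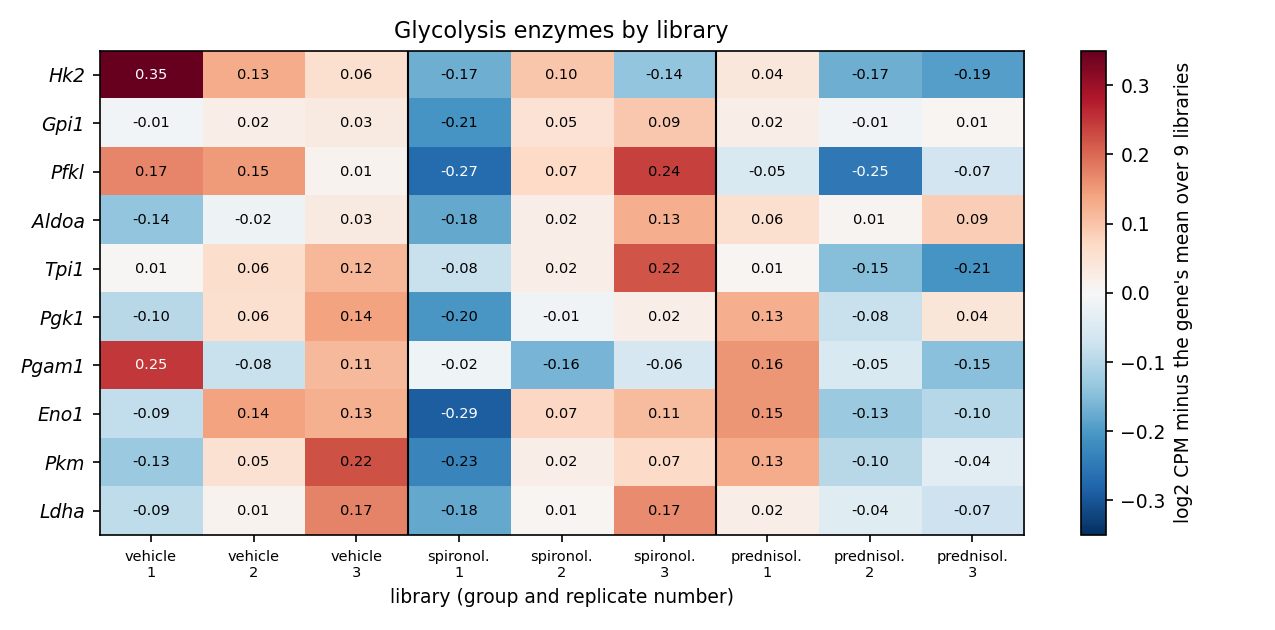
Log2 CPM of each enzyme in each library minus the mean of that enzyme over the 9 libraries, with vertical lines between the groups. Spironolactone replicate 1 is below 0 for every enzyme, from -0.29 for *Eno1* to -0.02 for *Pgam1*.

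Across the 9 libraries the levels of the enzymes were partly correlated. Over the 45 pairs of enzymes, the median Pearson correlation of log2 CPM was 0.58, from -0.37 to 0.95, and after subtraction of the group means the median was 0.71. These values describe 9 libraries that share cell composition and normalization, and they carry no test. *Eno1* was closest to the mean pattern of the 10 enzymes, with a root mean square difference in z score of 0.365, while *Hk2* at 0.891 and *Pgam1* at 1.02 were the farthest from it. Among other genes, *Ddx41* and *Gm51535* at 0.346 and *Ube2k* at 0.372 had the patterns most like that mean over the 9 libraries, followed by *Pdzd4* at 0.373 and *Gm40464* at 0.374.

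Other isoenzymes carry out the same steps in other cells, and 13 of the 20 listed were tested. With prednisolone against vehicle, edgeR called 1 of these 13, beside 1.76% of all genes tested, and limma-voom also called 1. In edgeR this was *Pfkp*, the platelet-type phosphofructokinase, which was higher. At an unadjusted P under 0.05 in edgeR there were 2 of 13, against 14.2% of all genes. *Pfkp* had 107, 105, and 110 CPM with vehicle, 101, 104, and 99.9 CPM with spironolactone, and 148, 135, and 130 CPM with prednisolone. All 3 prednisolone libraries were above all 6 others. *Pfkp* rose by 0.36 ± 0.08 on the log2 scale with prednisolone (edgeR, adjusted *P* = 0.0377), a 1.29-fold difference. This call was lost when only the 2 groups were fitted (adjusted *P* = 0.0753) and in 7 of 9 fits that left out a library, with adjusted P values of up to 0.151. It was also lost without the 2 libraries richest in neutrophil transcripts, at a log2 fold change of 0.38 and an adjusted *P* of 0.106. Between the drugs, *Pfkp* was lower with spironolactone by -0.44 ± 0.08 (edgeR, adjusted *P* = 0.00933), the 1 call of edgeR and of limma-voom among these 13 genes. EdgeR called 5.17% of all genes tested there, and 4 of 13 had an unadjusted P under 0.05, against 22.5% of all genes. The *Pfkp* call held in all 9 other settings and all 9 fits without 1 library. In that comparison DESeq2, which was run without the low-count filter, called 3 genes of the list, 2 of them higher, and the replicate block and the fit of only the 2 groups called 1 higher and 1 lower each. The fit with no low-count filter called 3 higher and 1 lower. With spironolactone against vehicle, edgeR called 0 of 13, where 0.0181% of all genes tested were called, while DESeq2 called 1 and limma-voom 0. In edgeR 2 of 13 had an unadjusted P under 0.05, against 9.29% of all genes.

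The sums of the cycling and dendritic marker lists also separated prednisolone from vehicle, as *Pfkp* did. The summed cycling markers were 573 to 635 CPM with prednisolone, 295 to 473 CPM with vehicle, and 367 to 416 CPM with spironolactone, with 7 of 8 genes all above vehicle (10.4% of all genes tested) and 2 of 8 called by edgeR (1.76% of all genes), *Top2a* and *Ccnb1*. The summed dendritic markers were 564 to 733 CPM with prednisolone against 376 to 398 CPM with vehicle, with 4 of 6 all above vehicle and 1 called, *Itgax*, which macrophages can also express. The fast muscle sums overlapped, at 449 to 691 CPM with prednisolone against 307 to 467 CPM with vehicle. Of the 15 fast muscle markers tested, 4 were all above vehicle and 1 was called, *Myh1*. Fitted values were lower with prednisolone for 6 of 6 tested erythroid, 8 of 10 neutrophil, and 7 of 8 lymphocyte markers, with 0 called. No gene of the cycling and dendritic lists was at 0 in any library. The part of these lists in the *Pfkp* values was not tested.

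*Pfkl* and *Pfkp* products form mixed tetramers, so their balance within the step was described per length. *Pfkl* made up 42.1% ± 1.92 of phosphofructokinase TPM with vehicle, 40.5% ± 4.16 with spironolactone, and 32.8% ± 2.10 with prednisolone (SD, *n* = 3). *Pfkp* made up 50.6% ± 1.80, 49.3% ± 3.84, and 59.5% ± 1.58. The 3 prednisolone libraries, at 30.8% to 35.0% for *Pfkl*, lay below every other library, of which the lowest was spironolactone replicate 1 at 36.0%. The summed TPM of *Pfkl*, *Pfkp*, and *Pfkm* was 56.9 ± 3.97 with vehicle, 55.0 ± 1.92 with spironolactone, and 65.8 ± 1.71 with prednisolone. TPM values were not scaled by TMM, so the sums of the groups also differ by scaling. As an example, *Gpi1* had 650 CPM with vehicle and 647 CPM with prednisolone, but 334 and 353 TPM. These shares were computed after the values were seen and were not tested.

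**Figure D4:**
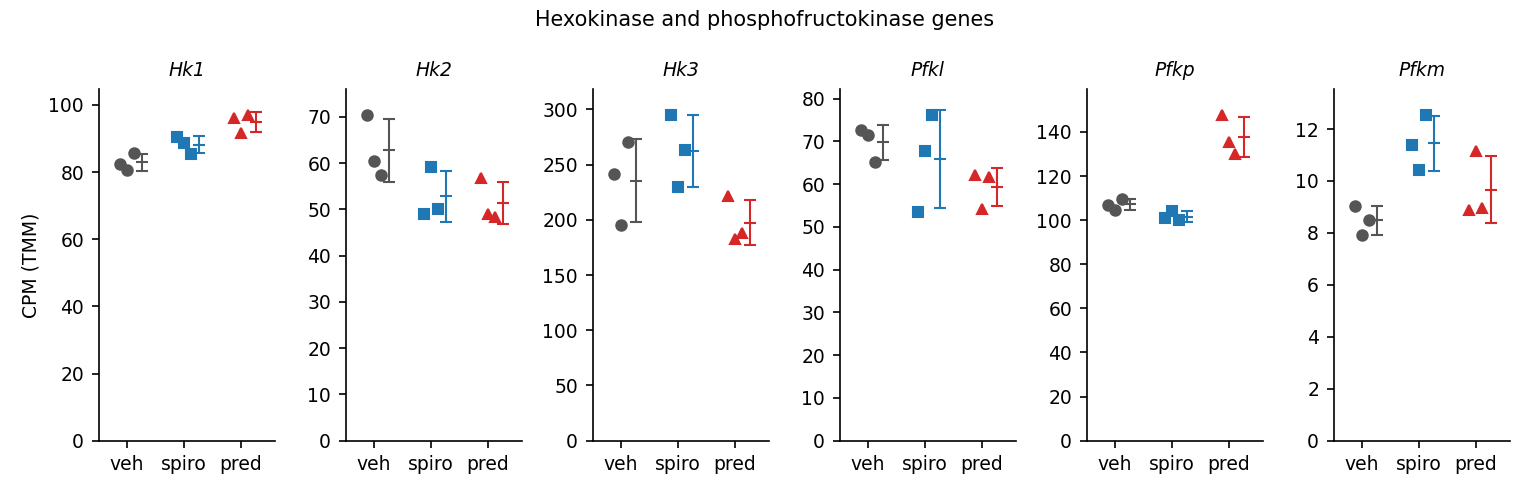
CPM of the hexokinase genes *Hk1*, *Hk2*, and *Hk3* and the phosphofructokinase genes *Pfkl*, *Pfkp*, and *Pfkm* in each library (points), with mean and SD beside them (veh, vehicle; spiro, spironolactone; pred, prednisolone), each axis starting at 0. The 3 prednisolone points of *Pfkp*, at 130 to 148 CPM, lie above the 6 others, at 99.9 to 110 CPM.

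The following isoenzymes were named after their values were seen. *Hk3*, the hexokinase typical of myeloid cells, made up 73.8% ± 3.01 of hexokinase TPM with vehicle, 76.6% ± 2.93 with spironolactone, and 70.5% ± 1.27 with prednisolone, so *Hk2* was a minor hexokinase in these cells at 11.7% ± 1.82, 9.13% ± 1.73, and 10.8% ± 0.243. *Hk1*, the housekeeping hexokinase, had 82.9 ± 2.56 CPM with vehicle and 94.9 ± 2.90 CPM with prednisolone. The *Hk1* difference of 0.19 ± 0.08 on the log2 scale did not pass (edgeR, adjusted *P* = 0.259), although its prednisolone libraries all lay above vehicle. *Ldha* accounted for 95.2% ± 0.800 of lactate dehydrogenase TPM with vehicle and *Eno1* for 87.2% ± 0.602 of enolase TPM, and these shares were 95.3% and 85.3% with spironolactone and 95.5% and 87.0% with prednisolone.

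Isoenzymes typical of skeletal muscle had higher fitted values with spironolactone, as the muscle markers did. *Pgam2*, the muscle phosphoglycerate mutase, had 7.66, 9.27, and 7.79 CPM with vehicle and 13.9, 11.5, and 18.7 CPM with spironolactone. The *Pgam2* log2 fold change of 0.84 ± 0.22 did not pass (edgeR, adjusted *P* = 0.181), and neither did that of *Pfkm*, the muscle phosphofructokinase, at 0.43 ± 0.15 (adjusted *P* = 0.332). The 3 spironolactone libraries lay above all vehicle libraries for both genes, 2 of the 13 isoenzymes tested, beside 6.99% of all genes. *Eno3*, the muscle enolase, overlapped, with 38.6, 42.9, and 46.3 CPM with vehicle and 46.5, 44.9, and 53.0 CPM with spironolactone, and its log2 fold change was 0.18 (adjusted *P* = 0.671). The summed fast muscle markers, at 579 to 977 CPM with spironolactone against 307 to 467 CPM with vehicle, were separated in the same way. Fitted values were also higher for all 7 endothelial (5 all above vehicle), 6 tested erythroid (4), and 8 lymphocyte markers (3). The same was true of all 8 fibro-adipogenic (1) and 6 dendritic markers (3). They were higher for 4 of 10 neutrophil, 4 of 13 macrophage and monocyte, 6 of 8 cycling, and 1 of 4 muscle stem cell markers. In these lists edgeR called 0. The part of such cells in the values of the isoenzymes and of the 10 enzymes was not tested. *Gapdh*, the enzyme of the remaining step, had 203 ± 10.8 CPM with vehicle, 203 ± 22.7 CPM with spironolactone, and 202 ± 20.6 CPM with prednisolone, and it has 48 near-identical copies that make its level uncertain.

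Of 10 genes for the transport of glucose and lactate, 9 were tested and edgeR called 0 in each comparison, with 1, 3, and 4 at an unadjusted P under 0.05 for prednisolone, spironolactone, and the direct comparison, where 14.2%, 9.29%, and 22.5% of all genes had such a P. limma-voom called 0 in each, and DESeq2 called 0, 0, and 1. For the direct comparison other fits called more, with 3 lower when only the 2 groups were fitted, 1 higher and 3 lower with no low-count filter, 2 lower without vehicle replicate 1, and 1 lower with library totals. With no low-count filter 1 was called lower with each drug against vehicle. *Bsg*, the basigin chaperone of lactate transporters, had 255, 257, and 257 CPM with vehicle, 272, 283, and 289 CPM with spironolactone, and 248, 256, and 253 CPM with prednisolone, and was separated between vehicle and spironolactone with a log2 fold change of 0.13 ± 0.08 (adjusted *P* = 0.648). *Slc2a1*, the glucose transporter GLUT1, had 82.0, 108, and 109 CPM with vehicle, 63.6, 83.4, and 76.2 CPM with spironolactone, and 116, 89.0, and 85.3 CPM with prednisolone. All 3 spironolactone values lay below prednisolone and 2 of 3 lay below all vehicle values, with *Slc2a1* log2 fold changes of -0.42 ± 0.14 against vehicle (adjusted *P* = 0.365) and -0.38 ± 0.14 against prednisolone (adjusted *P* = 0.142).

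Of 13 regulators of glycolytic flux, 11 were tested and edgeR called 0 in each comparison, with 1, 1, and 3 at an unadjusted P under 0.05, beside the same 14.2%, 9.29%, and 22.5% of all genes. DESeq2 called 1, 0, and 0 and limma-voom 0 in each. *Pfkfb3*, which makes the main allosteric activator of phosphofructokinase, had 146, 112, and 126 CPM with vehicle, 112, 93.0, and 83.2 CPM with spironolactone, and 108, 76.0, and 73.6 CPM with prednisolone. All prednisolone libraries were below all vehicle libraries, and 1 spironolactone library reached the lowest vehicle value. The log2 fold change was -0.57 ± 0.16 with prednisolone (edgeR, adjusted *P* = 0.107), which passed in 4 of 9 other settings, and -0.41 ± 0.16 with spironolactone (adjusted *P* = 0.450). *Pfkfb4*, a related enzyme, had 64.9 ± 1.65, 65.7 ± 1.06, and 58.8 ± 6.28 CPM with vehicle, spironolactone, and prednisolone.

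The routes that leave glycolysis also had 0 calls by edgeR, DESeq2, and limma-voom. All 8 genes for pyruvate entry into mitochondria were tested, and edgeR gave 1, 1, and 2 of them an unadjusted P under 0.05, beside those same shares of all genes. Their 2 most abundant genes were *Dld*, with 52.8 ± 5.67, 45.5 ± 2.75, and 54.2 ± 1.98 CPM, and *Pdhb*, with 51.6 ± 5.18, 52.2 ± 3.98, and 50.8 ± 2.62 CPM for vehicle, spironolactone, and prednisolone. All 8 genes of the pentose phosphate pathway, which makes NADPH and ribose, were tested, and edgeR gave 0, 0, and 1 an unadjusted P under 0.05, against the same shares. *Tkt*, transketolase, had 537 ± 67.2, 531 ± 48.3, and 521 ± 27.6 CPM, and *Pgd*, which makes NADPH, had 305 ± 30.8, 296 ± 23.5, and 324 ± 12.1 CPM.

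HIF-1 has targets outside glycolysis, and 20 of the 22 genes in a list of HIF pathway members and such targets were tested. With prednisolone against vehicle, edgeR called 1 of 20, beside 1.76% of all genes tested. An unadjusted P under 0.05 was found for 4 of 20, against 14.2% of all genes. The called gene was *Vegfa*, the endothelial growth factor, which was lower. *Vegfa* had 91.4, 74.7, and 78.3 CPM with vehicle, 40.5, 45.0, and 43.2 CPM with spironolactone, and 52.3, 42.5, and 25.7 CPM with prednisolone. Every drug-treated library was below every vehicle library. *Vegfa* fell by 1.02 ± 0.21 on the log2 scale with prednisolone (edgeR, adjusted *P* = 0.0377), a call that held in 7 of 9 other settings and 2 of 9 fits without 1 library (adjusted *P* up to 0.135). Without the 2 libraries richest in neutrophil transcripts it was -1.05 with an adjusted *P* of 0.165. With spironolactone its log2 fold change was -0.93 ± 0.21 (edgeR, adjusted *P* = 0.164), which passed in 3 of 9 other settings and 1 of 9 fits without 1 library. In that comparison edgeR called 0 of 20 (0.0181% of all genes tested), with 5 at an unadjusted P under 0.05 (9.29% of all genes). By limma-voom 0 were called, and by DESeq2 3.

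*Hif1a* itself was the 1 of these 20 genes that edgeR called between the drugs, and limma-voom called 1 as well. DESeq2 and the replicate block each called 1 gene higher and 1 lower, and the fit of only the 2 groups called 2 higher and 1 lower. With no low-count filter 3 were called higher and 1 lower, and without vehicle replicate 1 the calls were 2 higher and 2 lower. Without spironolactone replicate 1 there was 1 in each direction. It had 157, 211, and 202 CPM with vehicle, 143, 152, and 134 CPM with spironolactone, and 263, 234, and 255 CPM with prednisolone, so that the 3 groups did not overlap. *Hif1a* was lower with spironolactone than with prednisolone by -0.81 ± 0.11 on the log2 scale (edgeR, adjusted *P* = 0.00189), in all 18 other fits as well. Against vehicle it did not pass, where the prednisolone difference was 0.40 ± 0.11 (adjusted *P* = 0.0905) and the spironolactone difference -0.41 ± 0.11 (adjusted *P* = 0.188), although DESeq2 called both (adjusted *P* = 0.0208 and 0.0328). The *Hif1a* level with spironolactone was 0.571-fold that with prednisolone. Between the same groups, the 6 enzymes with the ACGTG core in a window, *Hk2*, *Aldoa*, *Pgk1*, *Pgam1*, *Pkm*, and *Ldha*, had log2 fold changes from -0.09 to 0.04. The 4 without these letters, *Gpi1*, *Pfkl*, *Tpi1*, and *Eno1*, had log2 fold changes from -0.02 to 0.17. Their windows may hold other forms of the core, which were not searched. All 10 intervals held 0, and the part of HIF-1 in these values was not tested. Markers of other cells also differed between these groups. The endothelial markers summed to 167 to 225 CPM with spironolactone and 114 to 137 CPM with prednisolone (5 of 7 all above, 2 called higher by edgeR), and the erythroid markers to 187 to 306 CPM and 37.1 to 79.7 CPM (5 of the 6 tested all above, 4 called higher). The neutrophil markers summed to 1012 to 3182 CPM and 430 to 577 CPM (7 of 10 all above, 0 called by edgeR and 4 with an unadjusted P under 0.05), and the lymphocyte markers to 7.65 to 11.1 CPM and 3.67 to 6.65 CPM (4 of 8 all above, 2 called higher). The cycling markers were lower with spironolactone, with 6 of 8 all below and 3 called. Of the 15 fast muscle markers tested 6 were all above and 1 was called higher, of the 13 macrophage and monocyte markers 1 was called higher and 1 lower, and of the 6 dendritic markers 1 was called lower. Over all genes tested in this comparison, 5.17% were called, 15.1% were all above, and 15.2% were all below. With vehicle the endothelial sum was 90.8 to 128 CPM and the erythroid sum 70.3 to 135 CPM. Their part in the *Hif1a* and *Vegfa* values was not tested.

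**Figure D5:**
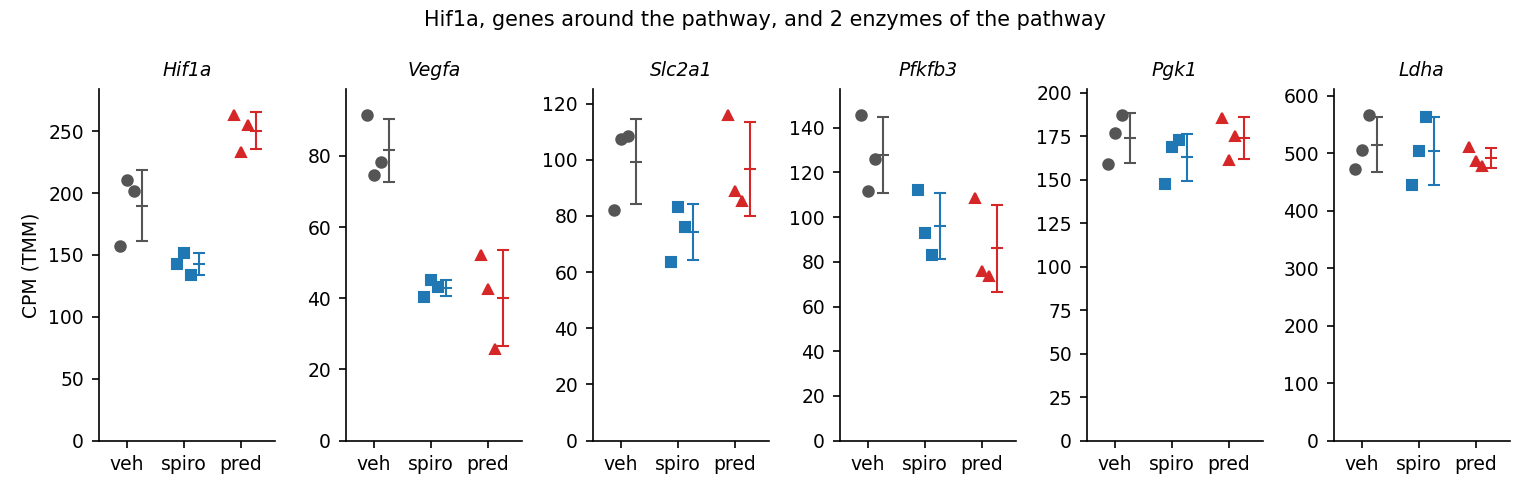
CPM of *Hif1a*, *Vegfa*, *Slc2a1*, *Pfkfb3*, *Pgk1*, and *Ldha* in each library (points), with mean and SD beside them (veh, vehicle; spiro, spironolactone; pred, prednisolone), each axis starting at 0. *Hif1a* separates all 3 groups and *Vegfa* separates vehicle from both drugs. The groups of *Pgk1* and *Ldha* overlap.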

How the data were processed

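RNA-Seq libraries of sorted cells were sequenced on a DNBseq platform. Per the submitters' processing notes, the authors used HISAT2 2.2.1, HTSeq 0.11.3, and DESeq2 1.32.0 with mouse build mm39 (GRCm39), and the deposited values are whole-number counts of reads per gene. The strand setting of the counting was not given in the sources used here. Lines that name no gene held 17.2% to 21.8% of the counts and were left out. The deposited tables of the authors' 3 comparisons hold mean counts, fold changes, and P values and were not used.

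Counts were filtered with filterByExpr (minimum count 10, minimum total 15), normalized by TMM, and fitted over all 9 libraries with the edgeR 4.0.16 quasi-likelihood test in R 4.3.3. P values were 2-sided and adjusted by the Benjamini-Hochberg method over all 16618 genes tested, with a threshold of 0.05. The biological coefficient of variation was 0.170. Alternatives were DESeq2 1.42.0 on all genes with at least 1 count, limma-voom (limma 3.58.1), other scalings, no filter, only the groups compared, a replicate block, *Xist* as a covariate, and leaving out each library. Depth was 31469815 to 32943512 counts per library, so counting error was small beside the spread between pools. CPM used a prior count of 2 for log2 values. TPM used summed exon lengths of 40303 symbols holding at least 91% of counts. The procedure was tested on simulated data.

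The enzymes and gene lists were chosen with earlier results of these data known. The genes named were all 10 enzymes and, in each other list of the pathway, every gene past the threshold in any comparison or otherwise the 2 most abundant. Cell type marker lists were outside this rule, and other genes were named after their values were seen.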

Additional observations from a re-analysis of the deposited data

How the results depend on the processing

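In 19 other fits per comparison, 0 of 10 enzymes were called, and the smallest adjusted P value of an enzyme was 0.134. Of 570 fitted values of the enzymes under these alternatives, 46 changed sign, 27 of them when 1 library was left out. The largest value that changed sign was 0.111 in size on the log2 scale. The cause of the sign changes was not tested. For prednisolone against vehicle, *Gpi1* was 0.017 with library totals only, 0.010 with no low-count filter, and 0.0035 without the 2 libraries richest in neutrophil transcripts. *Pgk1* was 0.0036 with upper-quartile scaling, 0.023 with library totals, 0.015 with no filter, 0.0011 with the replicate block, 0.00029 with *Xist* as a covariate, and 0.055 without the neutrophil-rich libraries. Without those libraries *Pkm* was 0.041, *Ldha* 0.011, and *Slc2a1* 0.034, and for spironolactone against vehicle *Aldoa* was -0.0010. For spironolactone against vehicle, *Tpi1* was 0.027 with upper-quartile scaling, 0.0011 with no filter, and 0.00032 with only the 2 groups. For spironolactone against prednisolone, upper-quartile scaling gave 0.00030 for *Gpi1* and 0.016 for *Eno1*, and *Ldha* was -0.0019 with library totals and -0.060 without the neutrophil-rich libraries.

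Leaving out 1 library at a time with prednisolone against vehicle gave ranges of -0.020 to 0.0032 for *Gpi1*, -0.065 to 0.055 for *Pgk1*, -0.14 to 0.041 for *Pkm*, -0.12 to 0.011 for *Ldha*, and -0.19 to 0.046 for *Slc2a1*. With spironolactone against vehicle the ranges were -0.087 to 0.059 for *Gpi1*, -0.20 to 0.043 for *Pfkl*, -0.034 to 0.12 for *Aldoa*, -0.088 to 0.064 for *Tpi1*, -0.16 to 0.029 for *Eno1*, and -0.12 to 0.052 for *Ldha*. The median of the 10 enzymes in that comparison ranged from -0.148 to 0.036, the upper value without spironolactone replicate 1. With spironolactone against prednisolone the ranges were -0.051 to 0.11 for *Hk2*, -0.080 to 0.066 for *Gpi1*, -0.13 to 0.025 for *Aldoa*, -0.13 to 0.020 for *Pgam1*, -0.080 to 0.11 for *Eno1*, -0.10 to 0.043 for *Pkm*, -0.054 to 0.12 for *Ldha*, and -0.15 to 0.33 for *Vegfa*.

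The background count of called genes, 293 for prednisolone, 3 for spironolactone, and 859 between the drugs, was 684, 266, and 1595 with DESeq2 and 1019, 528, and 1940 with no low-count filter. It was 239, 4, and 1598 with only the 2 groups, 281, 0, and 635 with the *Xist* covariate, 280, 0, and 840 with limma-voom, and 120, 0, and 285 without the neutrophil-rich libraries. Leaving out 1 library gave 69 to 826, 0 to 34, and 232 to 1898. What libraries with the same replicate number share was not stated. The 9 correlations of their deviations ran from -0.038 to 0.15, and 2 exceeded 0.1. These were vehicle with spironolactone, at 0.15 for replicate 3 and 0.12 for replicate 1. Pairs of different number from different groups ran from -0.17 to 0.044. Whether the number marks a shared source was not tested. With the replicate block, 0 of 10 enzymes were called in each comparison and the counts over all genes were 336, 8, and 1082.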
